A study of Homo sapiens with 24 samples.

Results

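The response of a leukaemia cell line to the compound NVS-ZP7-3 was set against that of a second line, gene by gene. The measure is a difference of differences on the log2 scale: the change from DMSO to NVS-ZP7-3 in P12-ICHIKAWA minus the same change in SUPT11. A value above 0 means a larger rise, or a smaller fall, in P12-ICHIKAWA. Genes were included when their brightest probe set matching a single gene averaged log2 6 or more with DMSO in both lines, which held for 7920 of the 19775 genes on the array, all of them among the 10661 tested. The rule uses the DMSO levels and not the responses, and it leaves out genes that are off in either line before treatment.

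P12-ICHIKAWA and SUPT11 are established human lines of T-cell acute lymphoblastic leukaemia (T-ALL), and the series holds 4 such lines. With 1 line on each side, a difference is one between these 2 lines. The 4 groups compared were P12-ICHIKAWA with DMSO, P12-ICHIKAWA with NVS-ZP7-3, SUPT11 with DMSO and SUPT11 with NVS-ZP7-3, with 3 arrays each and so 12 of the 24 arrays. Exposure lasted 16 h, and DMSO was at 0.5% in all groups, treated cells included. The labels give no dose of NVS-ZP7-3. Nor do they say that the 3 arrays of a group were separate cultures, so the p-values rest on a spread between arrays that may be technical alone.

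NVS-ZP7 compounds are known inhibitors of SLC39A7 (ZIP7), which carries zinc out of the endoplasmic reticulum (ER). A disturbed ER sets off the unfolded protein response: the sensor IRE1 (gene ERN1) splices XBP1 mRNA, ATF6 raises chaperones, and PERK phosphorylates eIF2, which favours translation of ATF4. ATF4, with partners of the C/EBP family and with CHOP (gene DDIT3), raises genes of amino acid supply, redox balance and growth arrest, a programme called the integrated stress response that other kinases can also start. Cholesterol synthesis is controlled from the same membrane, where SREBP factors are held until sterol falls.

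Promoters of 4 genes show the sequence elements through which these branches are known to act. The windows are the 250 bases before the RefSeq gene start, 5′ to 3′ on the gene's strand, in GRCh38.p14, and capitals mark the match. ERO1B (chr1:236281959-236282208, minus strand) and HSPA5 (chr9:125241344-125241593, minus strand) both hold the ER stress response element (CCAAT and CCACG with 9 bases of any kind between them), ERO1B on its reverse strand. They are shown because they share this element and, with the brightest probe set, ERO1B alone of the pair had a called difference. With the mean of all probe sets of a gene this turned around: HSPA5 was called, at -0.67, and ERO1B, at 0.26, was not. CEBPG (chr19:33373863-33374112, plus strand) holds TGATGCAA, the joint site of ATF4 and C/EBP. SKIL (chr3:170357465-170357714, plus strand), which moved in opposite directions in the lines, holds the XBP1 element TGACGTGG.
ERO1B: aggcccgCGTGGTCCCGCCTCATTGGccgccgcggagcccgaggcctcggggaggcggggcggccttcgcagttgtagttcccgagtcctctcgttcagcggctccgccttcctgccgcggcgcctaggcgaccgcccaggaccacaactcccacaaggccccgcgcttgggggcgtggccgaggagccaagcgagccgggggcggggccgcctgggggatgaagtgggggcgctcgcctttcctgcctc
HSPA5: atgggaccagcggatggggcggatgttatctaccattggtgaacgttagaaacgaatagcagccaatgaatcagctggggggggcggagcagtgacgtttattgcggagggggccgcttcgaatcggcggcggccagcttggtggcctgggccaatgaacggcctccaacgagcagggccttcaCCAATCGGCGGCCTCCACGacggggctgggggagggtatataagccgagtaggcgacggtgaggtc
CEBPG: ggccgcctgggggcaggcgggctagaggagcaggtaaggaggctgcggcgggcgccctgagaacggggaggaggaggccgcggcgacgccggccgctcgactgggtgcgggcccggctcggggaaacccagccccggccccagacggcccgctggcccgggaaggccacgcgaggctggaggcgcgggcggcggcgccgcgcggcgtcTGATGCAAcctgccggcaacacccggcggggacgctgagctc
SKIL: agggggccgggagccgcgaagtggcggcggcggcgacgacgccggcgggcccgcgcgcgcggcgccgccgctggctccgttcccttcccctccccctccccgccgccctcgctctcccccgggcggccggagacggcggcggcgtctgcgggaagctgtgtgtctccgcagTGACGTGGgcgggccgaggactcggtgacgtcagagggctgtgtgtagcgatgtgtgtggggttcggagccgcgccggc

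Both strands of all 35116 RefSeq promoters in the table were searched over the same 250 bases, and 6696 of the 7920 genes had one. The ER stress response element stood in 0.074% of all promoters and in 7 of the 22 promoters of ER chaperones and folding enzymes (CALR, CANX, CRELD2, ERO1B, HSP90B1, HSPA5 and PDIA6). TGATGCAA stood in 0.772% of all promoters, TGACGTGG in 0.612% and the cAMP response element TGACGTCA in 1.65%. Of 12 promoters of ATF4 and CHOP targets, TGATGCAA stood in 1, that of CEBPG. Among the 6696 promoters of compared genes the shares were 0.164% for the ER stress response element, 0.597% for TGATGCAA, 1.03% for TGACGTGG and 3.87% for TGACGTCA. The SKIL window also holds TGACGTCA, which shares its first 6 bases with TGACGTGG but lies at another position. Among genes with a called difference, 40 of those above 0 and 33 of those below 0 had a promoter, and the matches were CEBPG, ERO1B, SKIL and, for TGACGTCA, SKIL, CREB3L2 and CSTF3. TGACGTCA thus stood in 2 of the 40 and in 1 of the 33. A match describes letters and is not evidence of binding.

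Of 16 markers of T-ALL, CD3D, CD3E, CD3G, LCK, BCL11B, CD5, CD7 and GATA3 stood at log2 7.91 or above on every one of the 12 arrays. Others were low: PTCRA at 3.94 to 4.77, CD4 at 2.18 to 3.72, and CD8A at the background floor of 2.18 on all SUPT11 arrays. DNTT was at that floor in SUPT11 with DMSO. In P12-ICHIKAWA DNTT read 4.88, 3.49 and 2.96 with DMSO and 7.37, 2.95 and 3.56 with NVS-ZP7-3. The 7.37 was on treated array 1, where HBB, described below, was also highest. CD1A and CD1B were high in P12-ICHIKAWA and at the floor with DMSO in SUPT11, and CD2 stood at 2.19 to 2.22 in P12-ICHIKAWA and at 6.71 to 7.70 in SUPT11. Some markers of B and NK cells were high in 1 line, CD79A at 7.92 to 8.30 in P12-ICHIKAWA, and TCL1A at 9.81 to 10.32 and KLRF1 at 8.44 to 8.78 in SUPT11, while 6 of 11 B cell and 7 of 11 NK and cytotoxic markers lay at the floor on all 12 arrays. Over the 7920 genes the Pearson correlation was 0.992 to 0.998 within a group and 0.851 to 0.872 between P12-ICHIKAWA and SUPT11 arrays. The ACTB 3′ to 5′ difference, which grows as RNA degrades, changed by 0.044 in P12-ICHIKAWA and by 0.048 in SUPT11 (two-sided exact permutation p = 0.975 for the difference of changes, n = 3 per group, smallest possible p 0.005). HBB and LYZ were high on some treated arrays. HBB, a haemoglobin gene, read 11.45, 8.17 and 7.96 on the treated P12-ICHIKAWA arrays and 2.18, 10.61 and 4.58 on the treated SUPT11 arrays, against at most 2.31 on the 6 DMSO arrays, and the other 6 erythroid markers lay at the floor on all 12 arrays. The myeloid gene LYZ read 8.01, 5.59 and 5.50 on the treated P12-ICHIKAWA arrays, with 13 of 18 myeloid markers at the floor on all 12. Summed over a list, the log2 levels of the 7 erythroid markers ran from 15.3 to 15.4 with DMSO and from 21.05 to 24.54 with NVS-ZP7-3 in P12-ICHIKAWA. In SUPT11 they ran from 15.3 to 15.4 and from 15.3 to 23.7. For the 18 myeloid markers the sums were 52.20 to 53.04 and 54.88 to 57.80 in P12-ICHIKAWA, and 48.51 to 50.64 and 47.97 to 52.94 in SUPT11. On treated SUPT11 array 2, 18 of 31 genes that are bright in P12-ICHIKAWA and at the floor in SUPT11 were raised by 1 or more, against 2 on each of the other treated SUPT11 arrays. RAG1, one of them, read 4.73, 9.28 and 4.12 on the 3 treated SUPT11 arrays and 2.18 with DMSO. The source of these transcripts was not identified. In the opposite direction 0 of 40 genes that are bright in SUPT11 and at the floor in P12-ICHIKAWA were raised on any P12-ICHIKAWA array.

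**Figure D1:**
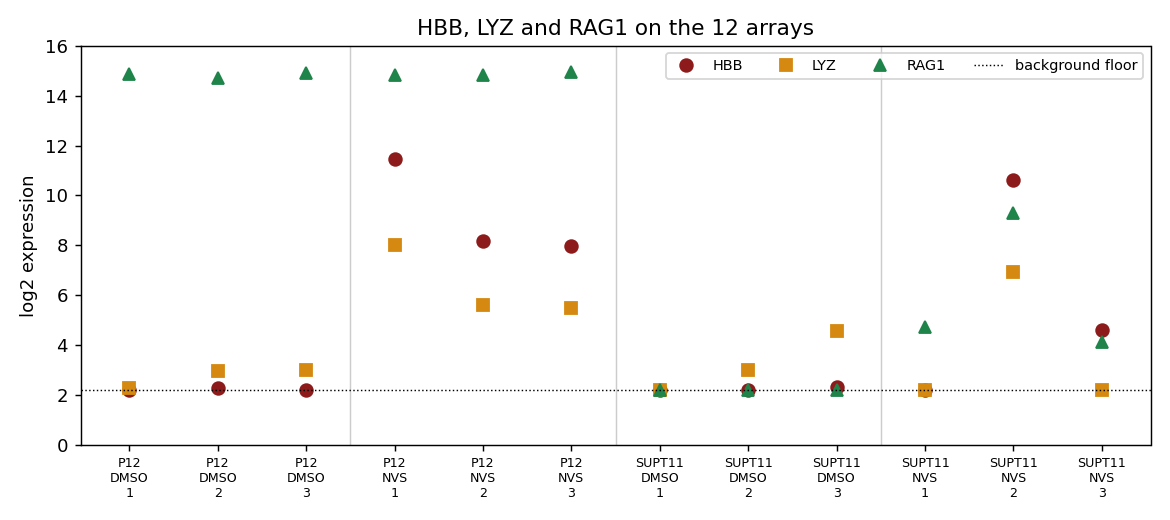
Log2 expression (vertical axis, from 0) of HBB, LYZ and RAG1 on each of the 12 arrays, grouped by line and treatment, with the background floor dotted. HBB stands above 7 on all 3 treated P12-ICHIKAWA arrays and on treated SUPT11 array 2, where RAG1 reads 9.28, against 4.73 and 4.12 on the other treated SUPT11 arrays and 2.18 on those with DMSO.

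ER chaperones rose in both lines. Called differences above 0 included 7 of 14 ATF4 and CHOP targets, and those below 0 included 4 of 16 cholesterol genes. The other lists linked to ATF4 gave 1 call among 36 genes, below 0, and neither ATF4 nor DDIT3 had a called difference. Of the 7920 genes, 91 had a called difference of response, 1.15% (limma, Benjamini-Hochberg adjusted p below 0.05 over all 10661 genes tested, of which 1.82% were called). The difference was above 0 for 53, 0.669% (1.08% of all tested), and below 0 for 38, 0.48% (0.741% of all tested), and at an unadjusted p below 0.05 there were 693. It reached 1 in size, a ratio of fold changes of 2 or more, for 9 genes, 7 above 0 and 2 below. The smallest called difference was 0.23, and the median standard error over all 7920 genes was 0.119. In bulk RNA a change in every cell cannot be told apart from a larger change, or a loss, of some of the cells.

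The calls differed in how well they held. A fit of the 12 arrays alone called 64 genes, 44 of them among the 91. Leaving out each array in turn gave 58 to 93 calls, the fewest without treated P12-ICHIKAWA array 1 (58) and without treated SUPT11 array 3 (59), and 42 of the 91 kept their call in all 12 such fits. With the HBB level of each array as a covariate 65 of the 91 kept their call, and 51 did when the treated array with the most HBB was left out of each line. The sign stayed the same for all 91 in each of the 12 fits and with the HBB covariate. The choice of probe set mattered as well: with the mean of all probe sets of a gene in place of the brightest, 6560 genes met the DMSO rule and 66 were called, 44 of them among the 91. CEBPG, E2F2, STX2, CELSR2, SQLE and VEGFA lost their call that way with a value within 1.5 times, and larger shifts stand beside the genes below.

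More genes were called in P12-ICHIKAWA than in SUPT11. In that line 649 of the 7920 were called (8.19%), 395 higher (4.99%) and 254 lower (3.21%), where the shares of all genes tested were 7.89, 4.91 and 2.98%. In SUPT11 87 were called (1.1%), 67 higher (0.846%) and 20 lower (0.253%), where the shares of all tested were 1.76, 1.18 and 0.582%. The size of this contrast depended on the fit. With the HBB covariate 281 genes were called in P12-ICHIKAWA and 65 in SUPT11, and with arrays weighted 735 and 167. Treated and DMSO arrays did not overlap for 85 of the 91 in P12-ICHIKAWA, against 23.3% of the 7920 and 21.4% of all tested, and for 36 in SUPT11, against 18.2 and 16.6%. The 91 were called on these same arrays, so the counts of 85 and 36 follow in part from that choice and are a description. Over the 7920 genes the measured changes had an SD of 0.20 in P12-ICHIKAWA and 0.12 in SUPT11. That SD holds the spread between arrays as well as the responses, and the 2 parts were not separated. Both lines called 50 genes: 45 rose in both, 3 fell in both and 2 went opposite ways. Of the 649 called in P12-ICHIKAWA, 532 had the same sign in SUPT11 and 84 had a called difference. For the other 565 a call in P12-ICHIKAWA does not show a response that differs from that of SUPT11. Across genes, which are not independent replicates, the responses correlated at 0.43 (Pearson).

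The 91 genes fell into classes by the calls of each line. The largest, with 50 genes, rose in P12-ICHIKAWA and was not called in SUPT11, with median changes of 0.66 and 0.04. In the second, 28 genes fell in P12-ICHIKAWA without a call in SUPT11, with medians of -0.42 and 0.02. Another 5 rose in SUPT11 without a call in P12-ICHIKAWA: ACAT2, CHI3L2, DHCR7, LONRF1 and RBFOX2. ERO1B and CREB3L2 rose in both lines and more in P12-ICHIKAWA, SQLE and HMGCS1 rose in both and more in SUPT11. SKIL and SLC1A4 were called in opposite directions, and RCBTB2 and MT2A were called for the difference alone. CHI3L2, LONRF1, RBFOX2 and RCBTB2 were far brighter in P12-ICHIKAWA. On treated SUPT11 array 2, where 18 of 31 genes bright in P12-ICHIKAWA were raised, they read 9.91, 7.80, 7.69 and 9.37, each the lowest of the 3 treated SUPT11 arrays. The part of such transcripts in these readings was not tested. With the mean of all probe sets RBFOX2 stood at -0.13 and RCBTB2 at -0.26, neither called.

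**Figure D2:**
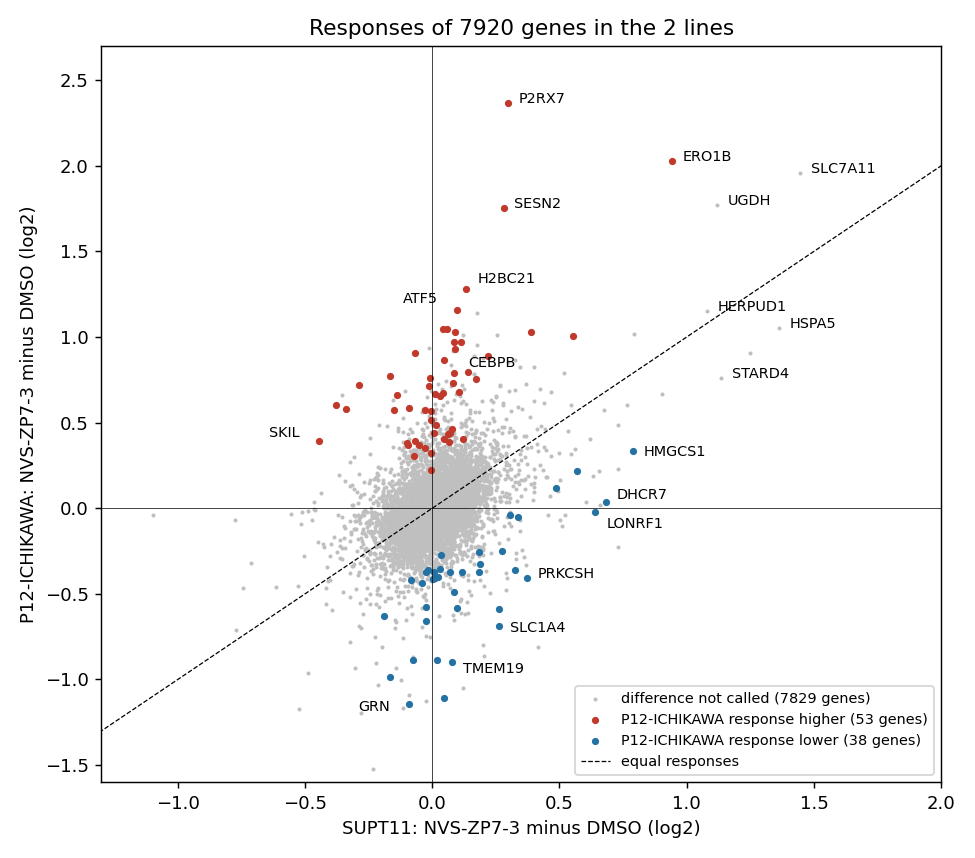
Each point is 1 of the 7920 genes, placed by its change with NVS-ZP7-3 in SUPT11 (horizontal, log2) and in P12-ICHIKAWA (vertical, log2), with equal responses on the dashed line. The 53 genes with a called difference above 0 lie above the line, P2RX7 the farthest at 2.07, and the 38 below 0 lie under it, while HERPUD1 and HSPA5 rose in both lines without a called difference.

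A group of ATF4 and CHOP targets rose more in P12-ICHIKAWA. Of the 14 in the list that met the DMSO rule, 7 had a called difference, all above 0 (SESN2, ATF5, CEBPB, VEGFA, ERN1, DDIT4 and CEBPG), against 0.669% of all 7920 genes. The difference lay above 0 for 14 of 14, where 48.1% of the 7920 did, and its median was 0.37 against -0.006. In P12-ICHIKAWA 12 of the 14 rose and in SUPT11 1 did. Fits without a single array called 4 to 6 of the list. The list was chosen with earlier results of these data known, and its genes are not independent of each other, so these counts are a description.

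SESN2, a stress-induced sestrin that restrains the growth kinase mTORC1, had the largest difference of the list. In P12-ICHIKAWA it read 7.13, 7.16 and 6.50 with DMSO and 8.76, 8.84 and 8.45 with NVS-ZP7-3, and in SUPT11 9.23, 9.29 and 9.48, then 9.67, 9.63 and 9.55. Treated and DMSO arrays did not overlap in either line, yet treated P12-ICHIKAWA stayed below untreated SUPT11. The rise was 3.37-fold in the first line and 1.21-fold in the second, a difference of 1.47 ± 0.325 (SE; limma adjusted p = 0.022), and the adjusted p ranged from 0.0209 to 0.06 when single arrays were left out, with the call lost in 5 of 12 fits.

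ATF5, a stress-responsive transcription factor whose mRNA is translated when eIF2 is phosphorylated, read 12.31, 12.11 and 12.06 with DMSO and 13.27, 13.36 and 13.33 after treatment in P12-ICHIKAWA. SUPT11 gave 10.82, 10.92 and 11.003, then 11.06, 10.97 and 10.998. Here the groups separated in P12-ICHIKAWA and overlapped in SUPT11. The difference was 1.06 ± 0.127 (limma adjusted p = 7.4e-05), it stayed called without any 1 array, and all 3 other ATF5 probe sets at the DMSO rule had the same sign.

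The C/EBP partners of ATF4 followed. CEBPB read 9.79, 9.76 and 9.36, then 10.57, 10.70 and 10.56 in P12-ICHIKAWA, while its 6 SUPT11 values lay between 10.61 and 10.79. Treatment thus took P12-ICHIKAWA to the level that SUPT11 held throughout, with a difference of 0.89 ± 0.150 (limma adjusted p = 0.0022). CEBPG, whose promoter with TGATGCAA is printed above, read 12.36, 12.42 and 12.42, then 12.82, 12.77 and 12.82 in P12-ICHIKAWA. Its SUPT11 values were 11.73, 11.83 and 11.76, then 11.79, 11.81 and 11.86, which overlap. The difference was 0.36 ± 0.0741 (limma adjusted p = 0.0133), and it was called in all 12 fits that left out an array and in the fit of the 12 arrays alone.

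Others of the list moved by less or less securely. DDIT4, an mTORC1 inhibitor, differed by 0.38 ± 0.080 (limma adjusted p = 0.017) and ran from 12.50 to 12.56 with DMSO in P12-ICHIKAWA and from 13.98 to 14.05 in SUPT11. ERN1, the ER stress sensor IRE1, rose by 0.58 in P12-ICHIKAWA and changed by -0.03 in SUPT11 (difference 0.61 ± 0.136, limma adjusted p = 0.025, and 0.0595 in the fit of the 12 arrays alone). VEGFA, a growth factor of blood vessels, changed by 1.03 and 0.39. Its difference of 0.64 ± 0.161 was at the threshold (limma adjusted p = 0.049) and lost its call in 10 of the 12 fits that left out an array, with adjusted p up to 0.128. Not called were ASNS, asparagine synthetase, at 0.97 ± 0.503 (limma adjusted p = 0.56 over the 24 arrays and 0.0138 over the 12 arrays alone), and KLHL24, XPOT, TNFRSF10B, PSAT1, PHGDH and ATF4 itself, at 0.09 to 0.36. ATF4 mRNA was near 14.6 to 14.9 on all 12 arrays.

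Other lists linked to ATF4 gave 1 call in all. Among 15 cytosolic aminoacyl-tRNA synthetases no difference was called (median 0.06), with SARS1 nearest at 0.40 (limma adjusted p = 0.081), and 3 rose in P12-ICHIKAWA and none in SUPT11. Enzymes of serine, proline, asparagine and one-carbon metabolism gave 0 called of 11 (median 0.09). Of 10 amino acid transporters SLC1A4 alone was called, below 0. SLC7A11, the cystine transporter, rose in both lines, by 1.96 and 1.44, and its difference of 0.51 ± 0.205 was not called (limma adjusted p = 0.33).

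**Figure D3:**
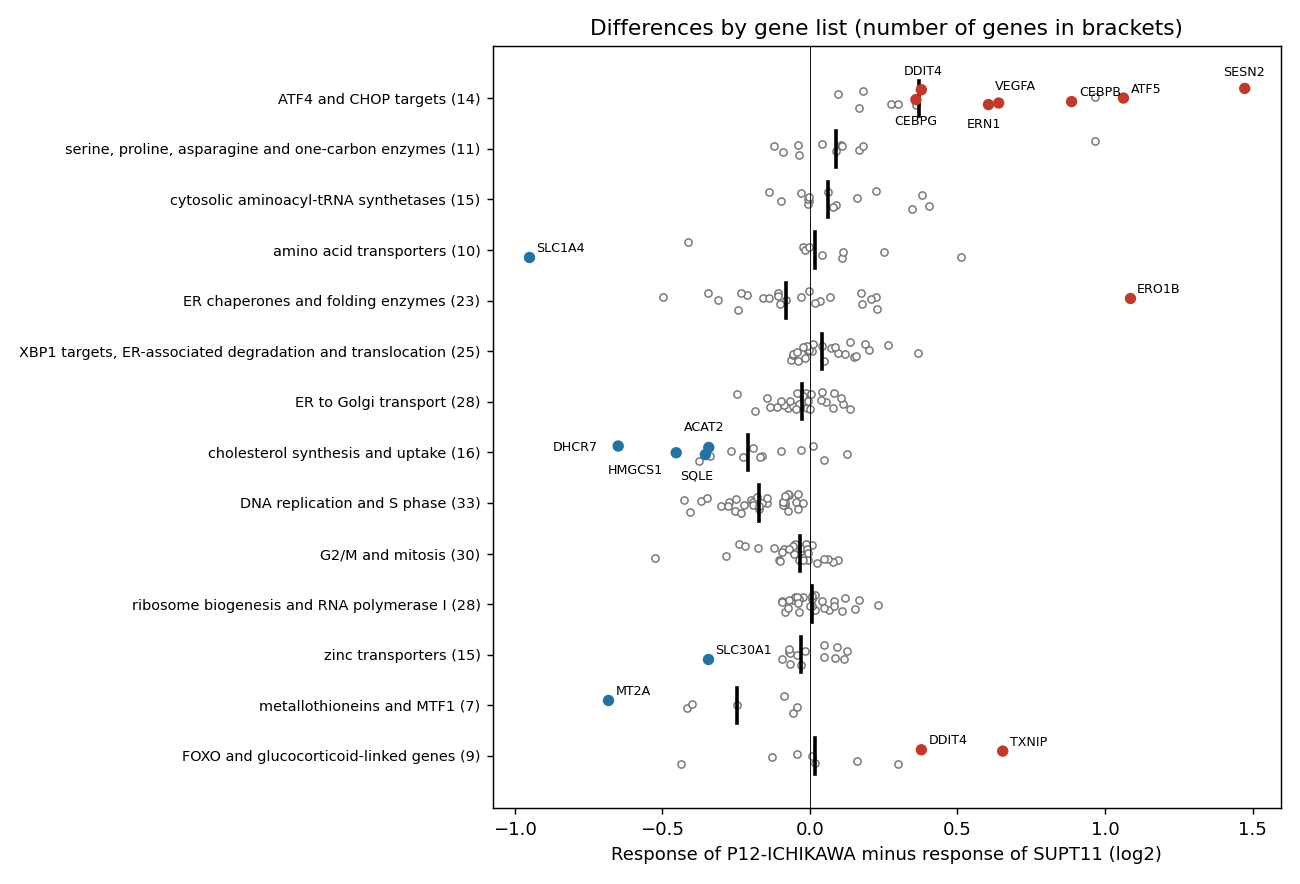
Response of P12-ICHIKAWA minus response of SUPT11 (horizontal, log2) for the genes of 14 lists, 1 point a gene, filled and named where the difference was called and open where it was not; the bar is the median of the list. All 14 ATF4 and CHOP targets lie above 0 and 13 of 16 cholesterol genes below 0, with 7 and 4 called.

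ER chaperones and folding enzymes rose in both lines. Of the 23, 15 rose in P12-ICHIKAWA and 16 in SUPT11, none fell in either, and the median difference was -0.08. HSPA5, the chaperone BiP, read 13.49, 13.40 and 13.21, then 14.45, 14.48 and 14.32 in P12-ICHIKAWA, and 13.07, 13.01 and 13.12, then 14.48, 14.41 and 14.40 in SUPT11. The treated arrays of both lines ended between 14.32 and 14.48. The rise was 1.05 and 1.36, and the difference of -0.31 ± 0.094 was not called (95% interval -0.51 to -0.11, limma adjusted p = 0.133). That depended on the probe sets and on 1 array: the difference was called at -0.67 with the mean of all HSPA5 probe sets (limma adjusted p = 0.000296) and at -0.39 without P12-ICHIKAWA DMSO array 3 (0.0217). CALR, the lectin chaperone calreticulin, had a difference of -0.50 just outside the threshold (limma adjusted p = 0.051), and SDF2L1, a partner of BiP, -0.34 (0.77).

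ERO1B, an oxidase that drives disulphide formation in the ER, was the exception in this list and its 1 called gene of 23. P12-ICHIKAWA arrays read 6.39, 5.9997 and 6.62 with DMSO and 8.45, 8.21 and 8.42 with NVS-ZP7-3, while SUPT11 arrays read 8.13, 8.71 and 8.23, then 9.16, 9.38 and 9.36. All treated arrays were above all DMSO arrays in each line, with a 4.07-fold rise against 1.92-fold. The difference was 1.08 ± 0.196 (limma adjusted p = 0.0045) and held in all 12 fits that left out an array, but in the fit of the 12 arrays alone, where the spread is estimated on 8 degrees of freedom in place of 16, its adjusted p was 0.105. With the mean of all ERO1B probe sets in place of the brightest the difference was 0.26 and was not called.

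Of 25 XBP1 targets and genes of ER-associated degradation and translocation none had a called difference (median 0.04), with 8 rising in P12-ICHIKAWA and 3 in SUPT11. HERPUD1, which acts in that degradation, rose by 1.15 and 1.08, and the 95% interval of its difference was -0.10 to 0.24. With the mean of all HERPUD1 probe sets the difference was 0.53, outside that interval and not called (limma adjusted p = 0.395). EDEM1 came nearest to a call, at 0.37 (limma adjusted p = 0.065). CREB3L2, an ER-bound transcription factor released under stress, rose in both lines, by 1.01 and 0.56. Its difference of 0.45 ± 0.108 (limma adjusted p = 0.037) lost its call in 8 of 12 fits without an array, and in the fit of the 12 arrays alone (0.142), and with the mean of all CREB3L2 probe sets it was 0.15 (0.93). None of 28 genes of ER to Golgi transport had a called difference (median -0.03).

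The called differences among cholesterol genes all lay below 0. Of 16 in the list, 4 had a called difference, all below 0 (DHCR7, HMGCS1, SQLE and ACAT2), against 0.48% of the 7920 genes. The difference was below 0 for 13 of 16, where 51.9% of the 7920 were, with a median of -0.21. In SUPT11 11 rose and in P12-ICHIKAWA 6, and none fell. Fits without a single array called 2 to 4 of the list. This list too was chosen with earlier results known and its genes are not independent, so its counts are a description.

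HMGCS1, the synthase that feeds HMG-CoA into the pathway, read 13.63, 13.63 and 13.71, then 14.02, 13.91 and 14.06 in P12-ICHIKAWA. SUPT11 started lower, at 13.19, 13.03 and 13.18, and ended at 13.91, 13.92 and 13.93. The treated arrays of both lines thus overlapped, and the rise was 1.26-fold against 1.73-fold, a difference of -0.45 ± 0.090 (limma adjusted p = 0.0093). DHCR7, the enzyme of the last step to cholesterol, read 7.76, 7.78 and 7.61, then 7.75, 7.86 and 7.66 in P12-ICHIKAWA, where the groups overlapped. In SUPT11 it went from 7.17, 7.03 and 7.14 to 7.77, 7.75 and 7.89, again to the level of P12-ICHIKAWA. Its difference was -0.65 ± 0.131 (limma adjusted p = 0.011). Both kept their calls without any 1 array and in the fit of the 12 arrays, and with the mean of all probe sets DHCR7 stood at -0.53 and was not called (limma adjusted p = 0.080).

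SQLE, squalene epoxidase, rose by 0.22 and 0.57 (difference -0.35 ± 0.080, limma adjusted p = 0.025). ACAT2, a cytosolic thiolase, changed by -0.04 and 0.30 (-0.34 ± 0.077, limma adjusted p = 0.025). These calls were lost without 6 and 7 of the 12 arrays, with adjusted p up to 0.0724 and 0.0714. STARD4, a sterol carrier, had the largest rise of the list in both lines, 0.76 and 1.14, and its difference of -0.37 was not called (limma adjusted p = 0.075). INSIG1, which retains SREBP in the ER, changed by 0.18 and 0.45 (difference -0.27, 0.32), and was called at -0.40 with the mean of all its probe sets (limma adjusted p = 0.0107). No fatty acid synthesis gene of 5 was called.

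P2RX7, an ATP-gated cation channel of the plasma membrane, had the largest difference of all 7920 genes. Its P12-ICHIKAWA arrays read 7.20, 6.91 and 7.10 with DMSO and 9.49, 9.33 and 9.49 with NVS-ZP7-3. SUPT11 arrays read 8.64, 8.56 and 8.74, then 8.87, 9.02 and 8.95. With DMSO all P12-ICHIKAWA arrays lay below all SUPT11 arrays, and with NVS-ZP7-3 all lay above. The rise was 5.16-fold against 1.23-fold, and the difference of 2.07 ± 0.178 (95% interval 1.70 to 2.44, limma adjusted p = 1.5e-06) was between 1.99 and 2.13 without any 1 array. With the mean of all P2RX7 probe sets it was 1.04 and still called.

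**Figure D4:**
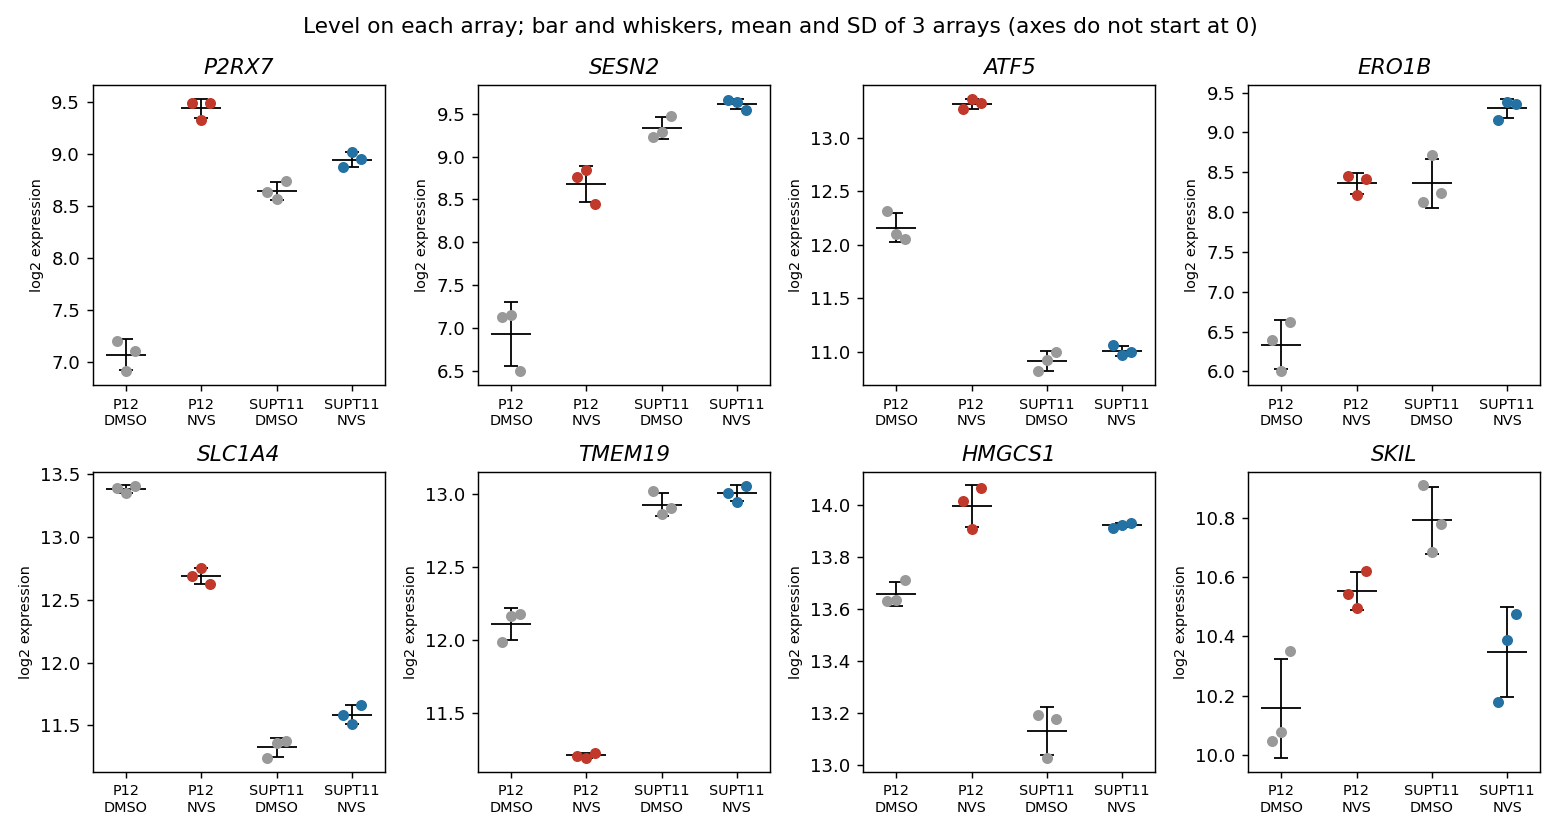
Log2 expression of 8 genes on each array (points, 3 per group), with the mean as a bar and the SD as whiskers; vertical axes differ between panels and do not start at 0. P2RX7, SESN2, ATF5 and ERO1B rise more in P12-ICHIKAWA (P12), SLC1A4 and TMEM19 fall there, HMGCS1 rises more in SUPT11, and SKIL moves in opposite directions.

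Among the other calls above 0, TXNIP, an arrestin-like protein that limits glucose uptake, read 11.76, 11.93 and 11.86, then 12.69, 12.66 and 12.59 in P12-ICHIKAWA. In SUPT11 it ran from 12.54 to 12.62 with DMSO and from 12.69 to 12.81 after treatment. The groups separated in both lines, and the difference was 0.65 ± 0.085 (limma adjusted p = 1.6e-04). In the list of FOXO and glucocorticoid-linked genes TXNIP and DDIT4 were the 2 called of 9. BTG1, an antiproliferative cofactor of mRNA decay, rose by 0.68 in P12-ICHIKAWA and changed by 0.10 in SUPT11 (difference 0.57 ± 0.069, limma adjusted p = 8e-05). It was chosen after its values were seen.

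GATA3, a transcription factor of T-cell development, read 10.36, 10.32 and 10.25, then 10.99, 10.9955 and 10.95 in P12-ICHIKAWA, and between 10.65 and 10.81 on all SUPT11 arrays. The order of the lines turned with treatment, with a difference of 0.65 ± 0.083 (limma adjusted p = 1.2e-04), and both other probe sets of the gene had the same sign. It was the 1 called gene of 8 T-ALL markers that met the rule.

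EVI2A and EVI2B, neighbouring genes for small membrane proteins that lie within NF1, rose together in P12-ICHIKAWA. EVI2B read 8.24, 8.70 and 8.24, then 9.47, 9.39 and 9.45 there, and 11.15 to 11.29 on all SUPT11 arrays. EVI2A read 7.99, 8.44 and 8.35, then 9.31, 9.28 and 9.28, and 10.32 to 10.75 on all SUPT11 arrays. Differences were 0.99 ± 0.162 and 0.94 ± 0.158 (limma adjusted p = 0.0017 and 0.0020), and both calls held in all 12 fits that left out an array.

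The remaining large differences above 0 had varied functions. PPP1R3B, which directs protein phosphatase 1 to glycogen, stood at 0.98 ± 0.102, SLC14A1, a urea transporter, at 1.01 ± 0.139, HS3ST3B1, a heparan sulphate sulphotransferase, at 0.98 ± 0.135 and ARHGEF10 at 0.94 ± 0.199. Each kept its call in all 12 fits without an array. With the mean of all probe sets of a gene PPP1R3B stood at 0.37, still called, and ARHGEF10 at 0.27 and SLC14A1 at 0.86, not called. HS3ST3B1 changed by 0.60 in P12-ICHIKAWA and by -0.38 in SUPT11, where it was not called (limma adjusted p = 0.052). H2BC21, an H2B histone gene, differed by 1.15 ± 0.175 and the pseudogene DPY19L1P1 by 1.01 ± 0.217. Histone genes and pseudogenes have near-identical copies that a probe set may not tell apart, so these values are uncertain.

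Further genes with calls above 0 that held in all 12 fits without an array were chosen after their values were seen. RAB37, a GTPase of secretory granules, read 9.74, 9.64 and 9.68, then 10.31, 10.31 and 10.18 in P12-ICHIKAWA, and 9.07, 9.24 and 9.29, then 9.03, 8.75 and 8.79 in SUPT11. The groups did not overlap in either line and moved apart, with a difference of 0.92 ± 0.130 (limma adjusted p = 3.7e-04), although the change of -0.34 in SUPT11 was not called. ABLIM1, an actin-binding protein, rose by 0.72 in P12-ICHIKAWA and changed by -0.01 in SUPT11. APOLD1, an early response gene of endothelium, rose by 0.97 and changed by 0.11, and CBLB, a ubiquitin ligase that restrains T-cell activation, by 0.79 and 0.09. Their differences were 0.73 ± 0.107, 0.86 ± 0.115 and 0.71 ± 0.122, and that of CBLB was 0.46, still called, with the mean of its probe sets.

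Differences above 0 often closed a gap that existed before treatment. With DMSO, 40 of the 53 genes were lower in P12-ICHIKAWA than in SUPT11, 28 of them by 1 or more, against 51.4% and 12.7% of all 7920. In 38 of the 53 the lines were closer with NVS-ZP7-3 than with DMSO. Among the 38 genes with a difference below 0, 19 were higher in P12-ICHIKAWA with DMSO and 19 lower, and the gap narrowed in 15. A DMSO level enters both the gap and the response, so these counts are a description.

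SLC1A4, a transporter of neutral amino acids (ASCT1), went opposite ways. It fell in P12-ICHIKAWA from 13.39, 13.35 and 13.40 to 12.69, 12.75 and 12.62. In SUPT11 it rose from 11.24, 11.36 and 11.37 to 11.58, 11.51 and 11.66. No treated array overlapped a DMSO array in either line. The changes were -0.69 and 0.26 (limma adjusted p = 8.2e-08 and 0.012) and the difference -0.95 ± 0.077 (limma adjusted p = 1e-06), with the same sign in both other probe sets.

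SKIL, the repressor SnoN of TGF-beta and SMAD signalling, was the other gene called in opposite directions. It rose in P12-ICHIKAWA from 10.05, 10.08 and 10.35 to 10.54, 10.49 and 10.62 and fell in SUPT11 from 10.91, 10.68 and 10.78 to 10.18, 10.39 and 10.48. The groups did not overlap in either line, and the lines changed order. Its changes of 0.39 and -0.44 had limma adjusted p = 0.0098 and 0.012, and the difference of 0.84 ± 0.129 had 8.1e-04. With the mean of all SKIL probe sets it was 0.50 and still called. Its promoter, printed above, holds TGACGTGG and TGACGTCA.

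TMEM19, which encodes a membrane protein, fell in P12-ICHIKAWA alone. Its arrays there read 11.99, 12.16 and 12.18, then 11.21, 11.19 and 11.23, and the 6 SUPT11 arrays lay between 12.86 and 13.06. The difference was -0.98 ± 0.080 (limma adjusted p = 1e-06), with the same sign in both other probe sets. PRKCSH, the beta subunit of ER glucosidase II, fell by 0.41 in P12-ICHIKAWA and changed by 0.37 in SUPT11 (not called there, limma adjusted p = 0.084), a difference of -0.78 ± 0.144 (0.0052). YIF1A, which acts between ER and Golgi, fell by 0.88 in P12-ICHIKAWA and differed by -0.81 ± 0.150 (limma adjusted p = 0.0056, and 0.082 in the fit of the 12 arrays).

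BLOC1S1, TMEM165, STX2, TGOLN2 and TAPBP are named from the 38 below 0 after their values were seen. BLOC1S1, whose mRNA is a known substrate of the IRE1 nuclease, read 11.69, 11.77 and 11.57, then 11.05, 11.02 and 10.98 in P12-ICHIKAWA, and 12.53 to 12.69 on all SUPT11 arrays. It differed by -0.63 ± 0.140 (limma adjusted p = 0.022, and 0.0059 in the fit of the 12 arrays), with the call lost without 4 of the 12 arrays (adjusted p up to 0.0579). TMEM165, a Golgi ion transporter, differed by -0.55 ± 0.080, and STX2, a syntaxin, by -0.58 ± 0.073, both called in all 12 fits without an array. TGOLN2, a protein of the trans-Golgi network, differed by -0.42 ± 0.084, with 1 of its 3 other probe sets of the opposite sign. TAPBP, the peptide-loading chaperone tapasin, read 13.20, 13.20 and 13.25, then 12.91, 12.85 and 12.78 in P12-ICHIKAWA, and 13.04 to 13.12 on all SUPT11 arrays. Its difference of -0.38 ± 0.095 was called over all arrays and in the fit of the 12 (limma adjusted p = 0.048 and 0.0148), but in none of the 12 fits without an array (up to 0.124), and the mean of its probe sets gave -0.17, not called.

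The 2 differences beyond -1 were not secure. H2AC8, an H2A histone gene with near-identical copies, differed by -1.16 ± 0.289 and GRN, the secreted factor progranulin, by -1.05 ± 0.255 (limma adjusted p = 0.047 and 0.041). Each lost its call in 10 of the 12 fits without an array, and in the fit of the 12 arrays alone they had 0.202 and 0.169. GRN lay between 5.25 and 6.77 in P12-ICHIKAWA, near the lower end of the range examined. H2BC5, a further histone gene, at -0.85 ± 0.203, lost its call in 10 such fits as well, and ARHGEF3, at -0.68 ± 0.155, and LONRF1, at -0.66 ± 0.166, in 8. The cell adhesion protein CELSR2 (-0.91 ± 0.195) and EPB41L5, of the cell cortex (-0.82 ± 0.182), lost theirs in 2 and 5 such fits. With the mean of all probe sets of a gene LONRF1 stood at -0.24 (limma adjusted p = 0.82), EPB41L5 at -0.41 (0.42) and H2BC5 at -0.50 (0.197), none of them called.

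Genes of zinc handling gave 2 calls, both below 0. SLC39A7, the known target of the compound series, changed by -0.02 and 0.05, and the 95% interval of its difference was -0.38 to 0.24. Of 15 zinc transporters, SLC30A1, the exporter of the plasma membrane, was called. It fell from 10.62, 10.72 and 10.67 to 10.24, 10.29 and 10.36 in P12-ICHIKAWA and stayed between 12.01 and 12.14 in SUPT11. The difference was -0.35 ± 0.081 (limma adjusted p = 0.032), lost without 8 of the 12 arrays (up to 0.0907), and its 1 other probe set had the opposite sign, so that the mean of both gave -0.06.

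Metallothioneins are zinc-binding proteins whose genes follow cytosolic zinc through MTF1. In the list of metallothioneins and MTF1 the difference was below 0 for 7 of 7 (median -0.25), where 51.9% of the 7920 were. Another gene of the list was called lower in P12-ICHIKAWA and none in SUPT11. MT2A alone had a called difference, where 0.48% of the 7920 were called below 0. MT2A read 11.87, 11.85 and 11.67, then 11.42, 11.56 and 11.33 in P12-ICHIKAWA, and 9.74, 9.75 and 9.97, then 10.32, 9.81 and 10.30 in SUPT11. The groups overlapped in SUPT11 and not in P12-ICHIKAWA, and neither change was called (limma adjusted p = 0.072 and 0.30). The difference of -0.68 ± 0.165 was (0.040), and it lost its call in 8 of the 12 fits without an array (adjusted p up to 0.112). Metallothionein genes are similar in sequence, so their probe sets may share signal and are not independent.

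DNA replication and S-phase genes had no called difference in 33, although the difference was below 0 for 33 of 33, where 51.9% of the 7920 were (median -0.17). In P12-ICHIKAWA 11 of them fell and in SUPT11 none did. These genes are not independent of each other, and the list was chosen with earlier results known. The largest were E2F1, a regulator of entry into S phase, at -0.43 (limma adjusted p = 0.099), CCNE1, cyclin E1, at -0.41 (0.15) and CDC6, a loader of the replicative helicase, at -0.37 (0.097). The called E2F genes E2F7 (-0.51 ± 0.103, limma adjusted p = 0.011) and E2F2 (-0.34 ± 0.075, 0.021) lie outside that list and were noticed after their values were seen, and neither was called with the mean of its probe sets (-0.25 and -0.31). G2/M genes (0 called of 30, median -0.03) and ribosome biogenesis genes (0 of 28, median 0.007) lay near 0. ENO2, an enolase, was the 1 called of 17 glycolysis genes, at -0.49 ± 0.104 (limma adjusted p = 0.017).

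Of the 5 Notch receptors and targets that met the rule none was called. MYC changed by -0.07 and -0.11, with a 95% interval of -0.27 to 0.34 for the difference. Another 11 genes of the list were tested outside the rule, and 4 of these were called, where 1.82% of all genes tested were. DTX1 and NOTCH3, at 7.42 to 8.47 with DMSO in P12-ICHIKAWA and at or near the floor in SUPT11, had differences of -3.85 and -3.11 (-1.55 with the mean of all NOTCH3 probe sets), and so low SUPT11 could show no fall. HES1, a repressor induced by Notch, differed by -0.53, having fallen in P12-ICHIKAWA. All SUPT11 arrays read an identical 5.17 for HES1, with an SD of 0, so a fall there may not be visible either. HEY1, of the same family, differed by 1.25, having fallen by 1.22 in SUPT11. NOTCH1 changed by -0.34 and 0.49 and its difference of -0.83 was not called (limma adjusted p = 0.28). In SUPT11 NOTCH1 read 2.45 on every DMSO array, near the floor, and 2.59, 3.77 and 2.45 with NVS-ZP7-3. The 0.49 thus rests mostly on treated SUPT11 array 2. NRARP lay at the floor in both lines. Stress genes outside the rule included TRIB3, a pseudokinase induced by CHOP, at 2.02 ± 0.230 (limma adjusted p = 4.3e-05, and 1.11, still called, with the mean of its probe sets) and CHAC1, which degrades glutathione, at 1.04 ± 0.179 (0.0025). TRIB3 averaged below 6 in SUPT11 with DMSO, at 4.54 to 4.85, and CHAC1 in P12-ICHIKAWA, at 3.89 to 4.36. On SUPT11 DMSO array 3 and treated arrays 2 and 3 TRIB3 read an identical 4.83. A rise of TRIB3 in SUPT11 may thus be hidden in part, although DMSO array 2 read lower, at 4.54. DDIT3, the gene for CHOP, rose in both lines, by 2.71 and 2.51, and its difference of 0.20 ± 0.202 was not called (limma adjusted p = 0.92). XBP1 rose by 3.14 from near the floor and by 2.21 (difference 0.93, 0.115). The genes nearest the rule were ZNF692, UGDH and FBH1 just inside, each with its lower line averaging 6.002 to 6.009, and ARAP1, MYLK4 and MEF2D just outside at 5.989 to 5.997, and none of these 6 was called.

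In all, 103 genes outside the rule were called among 2741 tested, where 1.82% of all genes tested and 1.15% of the 7920 were. Of the 2741, 1241 had a group at or near the floor of 2.18. For the 7920 inside the rule, 565 of the genes called in P12-ICHIKAWA and 76 of those called in SUPT11 had no called difference. The strongest shared rises were SLC7A11, UGDH, HSPA5, HERPUD1, SDF2L1 and STARD4. UGDH, which makes UDP-glucuronate, rose by 1.77 and 1.12 but spread from 5.24 to 6.78 on the P12-ICHIKAWA DMSO arrays, so a difference of 0.65 ± 0.343 could not be told from 0 (95% interval -0.07 to 1.37), although it was called at 1.04 without P12-ICHIKAWA DMSO array 2 (limma adjusted p = 0.0401).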

How the data were processed

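RNA of the 24 samples was hybridised to Affymetrix arrays. The authors deposited log2 expression values for 54675 probe sets, and GCRMA and limma are named, with no versions or settings, per the submitters' processing notes. GCRMA subtracts a modelled background and normalizes between arrays, so many undetected probe sets share a floor (2.18) and falls below it are not seen. Some probe sets repeat a higher value in the same way, such as HES1 at 5.17 on all SUPT11 arrays. The floor in the counts is 2.18, which misses such probe sets. Arrays give no read depth, and their number limits the precision.

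The platform annotation, with symbols updated through RefSeq (GRCh38.p14), gave 41097 probe sets 1 gene, 1801 several and 11777 none, and 41043 matched by gene identifier while 54 kept their old symbol. A gene was represented by its probe set of highest mean on the 24 arrays. Genes that reached log2 4 on 3 or more arrays (10661) were fitted with limma 3.58.1 in R 4.3.3 as 8 group means with 16 residual degrees of freedom, shared by all lines, and p-values were adjusted by Benjamini-Hochberg and called below 0.05. Every gene of the comparison passed that filter. The HBB covariate and the fits without arrays use the same model.

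Genes were named by rule: the 12 most positive and 12 most negative called differences, up to 4 called per list, genes called in opposite directions, set key genes, shared rises and the genes nearest the log2 6 rule. The genes and lists were chosen with earlier results of these data known. Lists not described in the text (heat shock proteins, NRF2 and glutathione, p53 targets, BCL2 family, T cell receptor genes, interferon-linked genes, proteasome, autophagy and lysosome, immediate early genes) had 0 called members each. The steps were tested on simulated data. Alternatives were other filters, rules, normalizations, blocks, covariates and thresholds, leaving out each array and, added after seeing the data, leaving out the treated array with the most HBB of each line and weighting arrays in the fit of the 12.

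Same-numbered DMSO and treated arrays deviated from their group means with correlations of 0.05, 0.04 and 0.62 in P12-ICHIKAWA and -0.20, 0.22 and 0.09 in SUPT11, so the numbers were not taken to pair arrays.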

Additional observations from a re-analysis of the deposited data

Results flagged for a closer look

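A test of the difference between lines called 91 of the 7920 genes. Since each of these meets the criterion of a response that differs between lines, only the count and the genes called in opposite directions are listed: SLC1A4, with a difference of -0.95, and SKIL, with 0.84. Signals outside the main measurement stood above their DMSO level on treated arrays. HBB reached 11.45 on treated P12-ICHIKAWA array 1 and 10.61 on treated SUPT11 array 2, where RAG1, at 2.18 on the SUPT11 DMSO arrays, read 9.28, against 4.73 and 4.12 on the other treated arrays of that line. The part of these transcripts in the differences of response was not tested beyond the HBB covariate and the fits without those arrays.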

How the results depend on the processing

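The counts of called genes were 91 for the difference, 649 for P12-ICHIKAWA and 87 for SUPT11. Each gene named by rule with a called difference kept its sign under every alternative run. PIGL, one of the 91 but not named by rule, went from 0.28 to -0.06, not called, with the mean of all its probe sets. The counts were 31, 322 and 44 at an adjusted p below 0.01, and 9, 25 and 7 with a change of at least 1. With the replicate number as a block within each line they were 43, 429 and 49, and 38 of the 91 kept their call; the check of deviations did not show that numbers pair arrays. Array weights gave 142 for the difference and 167 for SUPT11. The fit of the 12 arrays gave 56 for SUPT11, and 134 with array weights (added after seeing the data). With the HBB covariate P12-ICHIKAWA had 281, and without the 2 arrays with the most HBB (also added) the difference had 55 and P12-ICHIKAWA 403. Leaving out each array gave 58 to 93 for the difference, 437 to 605 for P12-ICHIKAWA and 61 to 90 for SUPT11. Other filters, rules, probe sets, scalings and covariates kept these counts within 1.5 times, with 66 to 100 for the difference outside the settings named here.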
